A study of Mus musculus with 18 samples.

Results

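In murine renal proximal tubulo-interstitial epithelial cells (RPTEC) stimulated with the cytokine TWEAK, 140 genes stood at no more than 0.4 of their vehicle level after 24 h. These genes were chosen by that measured ratio. Levels were CPM, the reads of a gene divided by all reads on genes in its sample and multiplied by 1e6. Members had over 10 reads in 4 or more of the 18 samples, averaged at least 1 CPM in vehicle at 24 h, and had a TWEAK to vehicle ratio of at most 0.4 at 24 h, after 0.1 CPM was added to both means. Of 36528 genes in the files, 15521 passed the read filter, 13225 of these reached 1 CPM in vehicle at 24 h, and 140 met the ratio. A set of 10 pancreatic islet genes was left out beforehand, and 2 of them, Ins2 and Chga, met the other conditions. RefSeq gave a symbol for 136 members and GENCODE for 1, and the other 3 are known here by GeneID alone. Of the 140 genes, 125 were annotated as protein coding.

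The RPTEC were primary cells of C57BL/6 mice bought from ScienCell and grown in the supplier's epithelial medium. They received vehicle (DMSO), recombinant mouse TWEAK at 100 ng/mL, or the same TWEAK with NIK SMI1 at 3 μM, each for 6 h or 24 h, with 3 samples in each of the 6 groups. All 6 groups shared strain, cell source and medium. No samples with NIK SMI1 and without TWEAK were analysed here, so an effect of the compound on its own and a reversal of the TWEAK effect cannot be told apart. The sources do not say whether the 3 samples of a group came from separate animals or cultures, so p-values measure only the spread between these samples.

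TWEAK is a ligand of the tumor necrosis factor family whose receptor, Fn14, activates both the canonical and the non-canonical NF-κB pathway. NIK is the kinase of the non-canonical pathway, in which it drives the processing of p100 to p52, and NIK SMI1 is a small molecule that inhibits it. In the kidney TWEAK is best known for the inflammatory genes it induces in tubular epithelium. Differentiated epithelia also depend on junctions, a glycan coat, ion transport and retinoid handling, and members from each of these functions were among the repressed genes.

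Between 18040966 and 51956444 reads per sample fell on genes (median 35374254), so 3 reads, the least reported as a level, were worth 0.0577 to 0.166 CPM. The 9 renal epithelial markers examined summed to 7814 to 9725 CPM, chiefly from Krt18, Krt8 and Cdh1. The 10 proximal tubule markers summed to only 10.3 to 14.8 CPM, mostly from the glucose transporter Slc5a2 (group means of 6.51 to 8.11 CPM), the endocytic receptor Cubn (2.14 to 4.35) and Gatm (0.684 to 1.97). Lrp2 averaged 0.103 to 0.414 CPM, and Slc22a8 and Miox had no read in any sample, so some defining markers of the proximal tubule were low and others absent or near 0. The 10 islet genes summed to 20.3 to 41.6 CPM in every 6 h library and every vehicle library at 24 h. They summed to 20.1, 0.257 and 6.00 CPM in TWEAK samples 1, 2 and 3 at 24 h, and to at most 0.145 CPM in each library with NIK SMI1 at 24 h. No member belonged to the islet or the pancreatic acinar marker list. For the islet list this was partly set beforehand. The rule left out 10 of the 30 genes on that list, and 2 of the 10 met its other conditions. Of the podocyte markers, Nphs1 averaged under 0.1 CPM in every group, while the list summed to 404 to 410 CPM in vehicle, 279 to 286 with TWEAK and 339 to 346 with NIK SMI1 at 24 h, nearly all from Podxl and Synpo. The part of these differences in the results below was not tested.

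At 24 h the ratio that chose the genes ran from 0.119 to 0.3996, with a median of 0.315. This is the selection itself and was given no test: all 140 genes were lower in the edgeR fit described with the processing, where 20.7% of all genes were, and in all 140 every TWEAK sample was below every vehicle sample, as in 25.6% of all genes. The vehicle level at 24 h spanned 1.03 to 410 CPM with a median of 5.58 CPM. It was above 100 CPM for 8 genes, above 10 CPM for 58 and below 3 CPM for 48, so the weakest members rest on few reads. Summed over the members, the libraries held 3574 ± 48.0 CPM in vehicle, 1098 ± 7.94 under TWEAK and 1885 ± 49.0 once NIK SMI1 was added, at 24 h (SD, n = 3 each). Just inside the limit stood the unnamed GeneID 102642262 (0.398), Clca3a1 (0.398) and Npnt (0.3996), and just outside it Syne3 (0.401), Rnf39 (0.401) and Anxa8 (0.404). TWEAK sample 2, the one nearly free of islet reads, differed from samples 1 and 3 by a median log2 value of 0.0074 over the members, and by that sample alone 11 of the 140 ratios would pass 0.4, to at most 0.506.

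The repression was already present at 6 h, in samples that had no part in the ratio that chose the genes, though they counted toward the read filter. TWEAK lowered 113 of the 140 genes (80.7%) at 6 h by edgeR's quasi-likelihood test (Benjamini-Hochberg adjusted p below 0.05), against 12.0% of all genes tested. By edgeR, 0 members rose, where 11.7% of all genes did, and the count was also 0 at an unadjusted p below 0.05 and by DESeq2. The median log2 fold change was −0.77 for the members and −0.0034 for all tested genes. In 121 members every TWEAK sample was below every vehicle sample, as in 20.2% of all genes. Summed over the members, the libraries held 3137 ± 23.5 CPM in vehicle and 1954 ± 40.4 CPM with TWEAK at 6 h (SD, n = 3 each). The change was larger at 24 h in all 140 genes, a direction that the choice by the 24 h ratio favours, and 30 of the 113 were already more than 2-fold lower at 6 h. Lower values in bulk RNA do not tell fewer expressing cells from less RNA per cell. The 27 genes that did not pass the test at 6 h had a median of 1.55 CPM in vehicle at that time, against 6.09 CPM for the 113, and 24 of the 27 had negative fold changes.

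NIK SMI1 given with TWEAK raised 51 of the 140 genes (36.4%) over TWEAK alone at 6 h, against 5.34% of all genes. By edgeR, 0 members were lowered, where 5.70% of all genes were, with 1 at an unadjusted p below 0.05 (Cxcl5) and 0 by DESeq2. The median log2 fold change was 0.30, and 0.0029 over all tested genes. In 68 members the samples with NIK SMI1 were all above those with TWEAK alone, as in 14.5% of all genes. The level remained below vehicle: 68 members were still lower than vehicle with NIK SMI1 at 6 h, against 6.70% of all genes, at a median log2 value of −0.41. These comparisons share samples with the one of TWEAK against vehicle.

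**Figure D1:**
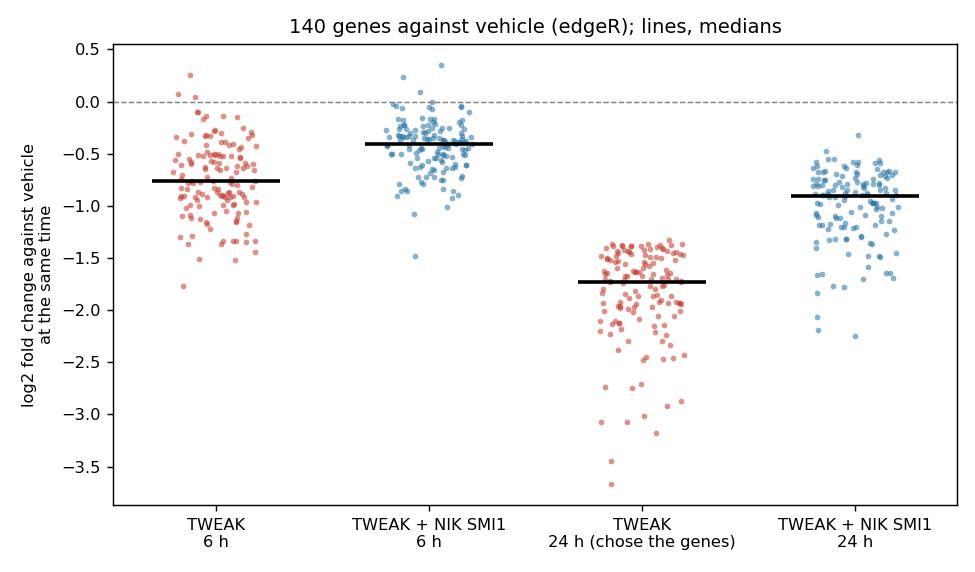
Log2 fold change against vehicle at the same time (y axis, edgeR) of each of the 140 genes with TWEAK and with TWEAK plus NIK SMI1 at 6 h and 24 h. Points are genes and black lines are medians (−0.77, −0.41, −1.73 and −0.90 from left to right), and the 24 h TWEAK column is the one that chose the genes.

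Promoters are printed for 6 members that carry the motifs met most often beyond their share in all genes, so that the matches can be read in place. RefSeq held a promoter, 250 bases before to 50 after the start, for 103 of the 140 members and 11228 of the tested genes. The 250 bases before the start are shown 5′ to 3′ on the strand of the gene, and capitals mark every match, on either strand, to any of 10 short motifs.
Ivl (GRCm38.p6, chr3:92573736-92573985, minus strand): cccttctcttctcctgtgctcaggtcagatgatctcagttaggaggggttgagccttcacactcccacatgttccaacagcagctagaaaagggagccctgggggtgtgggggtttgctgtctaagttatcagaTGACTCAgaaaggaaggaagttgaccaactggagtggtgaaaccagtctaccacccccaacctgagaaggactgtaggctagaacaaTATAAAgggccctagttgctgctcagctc
Clca3b (GRCm38.p6, chr3:144849303-144849552, minus strand): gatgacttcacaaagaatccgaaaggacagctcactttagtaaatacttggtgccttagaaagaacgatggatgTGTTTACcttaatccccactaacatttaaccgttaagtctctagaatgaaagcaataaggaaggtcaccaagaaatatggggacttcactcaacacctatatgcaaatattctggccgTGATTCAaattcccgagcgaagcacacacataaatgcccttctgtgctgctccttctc
Mctp1 (GRCm38.p6, chr13:76579347-76579596, plus strand): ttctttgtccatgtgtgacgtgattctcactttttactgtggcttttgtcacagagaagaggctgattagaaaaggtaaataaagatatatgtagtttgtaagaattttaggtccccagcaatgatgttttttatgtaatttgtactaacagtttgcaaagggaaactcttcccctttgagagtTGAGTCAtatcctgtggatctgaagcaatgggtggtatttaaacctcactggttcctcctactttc
Cyp26a1 (GRCm38.p6, chr19:37697558-37697807, plus strand): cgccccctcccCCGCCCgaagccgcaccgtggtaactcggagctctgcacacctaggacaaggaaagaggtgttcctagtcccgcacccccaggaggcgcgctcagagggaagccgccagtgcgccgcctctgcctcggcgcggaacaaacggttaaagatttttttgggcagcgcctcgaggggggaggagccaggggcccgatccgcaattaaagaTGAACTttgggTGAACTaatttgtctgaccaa
Cldn2 (GRCm38.p6, chrX:139800558-139800807, plus strand): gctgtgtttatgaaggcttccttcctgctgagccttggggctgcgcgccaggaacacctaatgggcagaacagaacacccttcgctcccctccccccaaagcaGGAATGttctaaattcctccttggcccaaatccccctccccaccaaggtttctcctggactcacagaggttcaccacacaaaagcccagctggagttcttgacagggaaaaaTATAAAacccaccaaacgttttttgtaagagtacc
Igfbp5 (GRCm38.p6, chr1:72874866-72875115, minus strand): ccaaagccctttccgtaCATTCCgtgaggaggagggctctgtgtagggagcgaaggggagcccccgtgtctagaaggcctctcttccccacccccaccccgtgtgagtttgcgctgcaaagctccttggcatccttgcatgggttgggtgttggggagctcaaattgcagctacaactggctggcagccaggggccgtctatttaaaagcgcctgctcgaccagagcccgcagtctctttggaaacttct

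Among the 300-base windows, a loose AP-1 pattern, TGANTCA with any base at its centre, was in 16 of 103 member promoters (15.5%). It was in 5.30% of all. The pattern appears in capitals in the promoters of Ivl (TGACTCA), Mctp1 (TGAGTCA) and Clca3b (TGATTCA) above. The AP-1 consensus has C or G at its centre. The matches in Clca3b, Ppbp, Efemp1 and Ifit3 had A or T there, and the consensus alone was not counted. The TEAD motif GGAATG was in 21 (20.4%) against 12.3%, and is seen once in Cldn2 and, on the other strand, once in Igfbp5. The retinoid half-site AGTTCA was in 18 (17.5%) against 9.68%, and the promoter of Cyp26a1, which encodes an enzyme that degrades retinoic acid, held it on the other strand in 2 copies separated by a short spacer. The NF-κB motif GGNNTTTCC was in 4 member promoters (3.88%) against 5.99%. The GC box GGGCGG was in 57 (55.3%) against 63.1%, the TATA box TATAAA in 10 (9.71%) against 7.14%, the E-box CACGTG in 10 (9.71%) against 9.89%, and the FOXA motif TGTTTAC in 5 (4.85%) against 2.56%. The GAS motif TTCNNNGAA was in 6 (5.83%) against 6.86%, and the RBPJ motif GTGGGAA in 7 (6.80%) against 6.30%. The member promoters had a median GC content of 58.7%, against 60.7% for all. The matches are a description, they were searched on both strands with overlaps between motifs allowed, and they do not show that a factor binds.

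**Figure D2:**
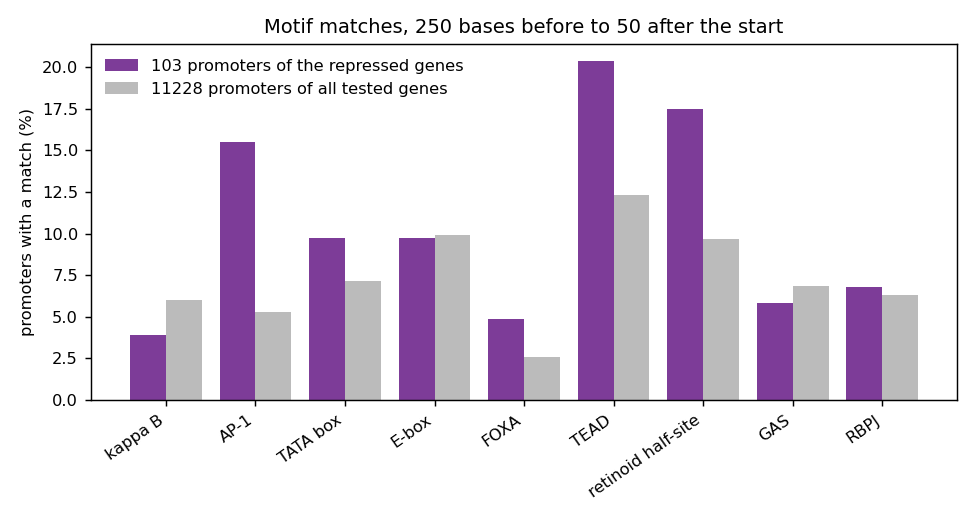
Percent of promoters with at least 1 match (y axis) for 9 motifs (x axis) in the 103 promoters of repressed genes and the 11228 promoters of all tested genes. The GC box, in 55.3% and 63.1%, is left out of the plot for scale, and the widest gap is that of the loose AP-1 pattern, 15.5% against 5.30%.

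For the account by function below, members were placed in roles after their values had been seen, so the counts by role describe and do not test. Over all 140 members, 80.7% were lower with TWEAK and 36.4% were raised by NIK SMI1 at 6 h. A role count near these shares therefore shows nothing particular to that role. Of 6 enzymes that build glycans, all 6 were lower with TWEAK at 6 h and all 6 were raised by NIK SMI1 at 6 h. Gcnt1 (GeneID 14537), which forms the core 2 branch of O-glycans, had 53.3, 52.5 and 54.03 CPM in the 3 vehicle samples, 22.9, 24.5 and 22.00 under TWEAK and 36.1, 32.6 and 35.9 under TWEAK with NIK SMI1 at 6 h. At 24 h it had 84.7, 74.8 and 84.2 CPM in vehicle, 20.00, 18.5 and 18.7 under TWEAK and 44.3, 41.1 and 46.5 under TWEAK with NIK SMI1. The 3 groups did not overlap at either time, and the inhibitor samples lay between the others. TWEAK lowered Gcnt1 at 6 h (log2 fold change −1.19, standard error 0.056, adjusted p = 2.00e-15) and NIK SMI1 raised it (0.58, standard error 0.060, adjusted p = 5.59e-08). St8sia1 (GeneID 20449), the sialyltransferase that makes the ganglioside GD3, had 3.56, 3.63 and 3.52 CPM in vehicle, 0.862, 1.03 and 1.21 under TWEAK and 1.92, 2.28 and 1.72 under TWEAK with NIK SMI1 at 6 h. It showed the steepest 6 h fold change of all members (log2 −1.76, standard error 0.15, adjusted p = 4.59e-10). Gcnt3, a mucin-type core enzyme, fell by less (log2 −0.91, adjusted p = 1.38e-14), as did Hs3st1, a heparan sulfate sulfotransferase (−0.86, adjusted p = 3.90e-12). Galnt14, which starts O-glycans, and Csgalnact1, which starts chondroitin chains, fell with log2 fold changes of −1.09 and −1.36 at 6 h (adjusted p = 1.74e-10 and 1.37e-09). In a wider list of 67 glycan-building enzymes, also drawn up afterwards, 26 were lower and 8 higher at 6 h, with a median log2 fold change of −0.13. The 26 include the 6 members, and over all genes tested 12.0% were lower and 11.7% higher at that time. These 2 shares are also the ones to set beside the counts of the other gene lists below.

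Among 8 genes of squamous and urothelial surfaces, TWEAK lowered 6 at 6 h and NIK SMI1 raised 4. Ivl (GeneID 16447) encodes involucrin, a scaffold of the cornified envelope. It had 21.4, 24.02 and 23.5 CPM in vehicle, 7.64, 8.61 and 7.61 under TWEAK and 12.5, 12.8 and 12.7 under TWEAK with NIK SMI1 at 6 h, and 19.7, 19.6 and 20.7, then 4.58, 4.60 and 4.73, then 7.81, 9.19 and 7.64 CPM in the same order at 24 h. No group overlapped another within a time. TWEAK lowered Ivl at 6 h (log2 −1.51, standard error 0.071, adjusted p = 2.16e-15) and NIK SMI1 raised it over TWEAK (0.66, standard error 0.079, adjusted p = 8.39e-07). Tgm1, the transglutaminase that crosslinks envelope proteins, fell at 6 h (log2 −0.93, adjusted p = 8.09e-08) and was raised by the inhibitor (0.47, adjusted p = 0.0072). Dsg3, a desmosomal cadherin at only 1.38 ± 0.155 CPM in vehicle at 24 h (SD, n = 3), did the same (log2 −1.52, adjusted p = 0.000106 and 1.24, adjusted p = 0.0062), although its call with the inhibitor was lost without TWEAK sample 2 (adjusted p = 0.0517). Scel, a precursor of the envelope, fell at 6 h (log2 −0.61, adjusted p = 1.81e-06), whereas its log2 value with NIK SMI1 was 0.19 (adjusted p = 0.20). Sprr2g, counted here for its place in the family of small proline-rich envelope genes, is annotated as a transcribed pseudogene, so its reads are not evidence of a protein. It had the second lowest ratio of all members, with 7.62, 6.04 and 8.74 CPM in vehicle, 0.925, 0.878 and 0.717 under TWEAK and 3.09, 1.86 and 2.44 under TWEAK with NIK SMI1 at 24 h. Upk3b, a uroplakin, and Psca, a surface antigen, did not pass the test at 6 h (log2 −0.61, adjusted p = 0.067 and −0.14, adjusted p = 0.23). Psca was nevertheless at 14.2, 15.6 and 16.1 CPM in vehicle and 3.26, 3.77 and 3.75 CPM with TWEAK at 24 h, and at 6 h its 3 TWEAK samples (10.5, 11.2 and 10.5 CPM) also lay below its 3 vehicle samples (11.5, 12.5 and 11.9 CPM). Of 30 keratin and desmosome genes tested, 14 were lower and 3 higher with TWEAK at 6 h, with a median log2 fold change of −0.18. Of 4 uroplakin and urothelial genes tested, 0 were lower and 1 was higher.

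Of 12 secreted ligands and their antagonists, TWEAK lowered 11 at 6 h, and NIK SMI1 raised 5. Igfbp5 (GeneID 16011), a binding protein that modulates insulin-like growth factors, had the lowest 24 h ratio of all members. Its level was 152, 145 and 158 CPM in vehicle, 56.2, 66.6 and 59.9 under TWEAK and 88.9, 86.5 and 89.9 under TWEAK with NIK SMI1 at 6 h. At 24 h it was 283, 281 and 286 CPM in vehicle, 32.2, 34.8 and 33.4 under TWEAK and 85.2, 82.3 and 82.5 under TWEAK with NIK SMI1. The vehicle samples were higher at 24 h than at 6 h while the TWEAK samples were lower, so the gap widened from both sides. TWEAK lowered Igfbp5 at 6 h (log2 fold change −1.30, standard error 0.045, adjusted p = 2.67e-18), and NIK SMI1 raised it over TWEAK (0.53, standard error 0.047, adjusted p = 4.39e-09). Il33 (GeneID 77125), a nuclear cytokine of the interleukin-1 family, was at 16.1, 14.4 and 16.4 CPM in vehicle, 2.86, 4.52 and 2.92 under TWEAK and 7.26, 5.19 and 5.72 under TWEAK with NIK SMI1 at 24 h. It fell at 6 h (log2 −0.79, adjusted p = 2.04e-05), and NIK SMI1 gave 0.14 at that time (adjusted p = 0.62). Ppbp, a platelet-type chemokine, was the member with the highest vehicle level per transcript length (134 RPKM, the authors' length-scaled unit) and was at 151 ± 2.49 CPM in vehicle and 29.96 ± 0.590 CPM with TWEAK at 24 h (SD, n = 3 each). Kitl, the ligand of the receptor Kit, Grem1, an antagonist of bone morphogenetic proteins, and Fgf18, a fibroblast growth factor, fell at 6 h with log2 fold changes of −0.54, −0.92 and −0.99 (adjusted p = 4.56e-05, 5.44e-08 and 0.0079). For these 3 genes the effect of NIK SMI1 at 6 h did not pass the test. Sema3e, a guidance cue, fell (log2 −0.56, adjusted p = 6.54e-09) and was raised by the inhibitor (0.30, adjusted p = 0.000499). Cxcl5, a neutrophil-attracting chemokine, was the exception at 6 h, with 2.24, 2.24 and 2.27 CPM in vehicle and 2.30, 2.05 and 1.90 CPM with TWEAK. With NIK SMI1 at 6 h Cxcl5 was at 1.03, 1.24 and 2.00 CPM, the lowest of the 3 groups though overlapping with TWEAK. Among 51 chemokines and cytokines tested, 25 were higher and 7 lower with TWEAK at 6 h, so the 2 lowered members of that list, Il33 and Il1f6, were on its less common side. Ppbp was not on the list and also fell at 6 h (log2 −0.42, adjusted p = 1.97e-09).

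All 9 transcription regulators among the members were lower with TWEAK at 6 h, and NIK SMI1 raised 6 of them. Id2 (GeneID 15902), which blocks basic helix-loop-helix factors, had 29.7, 30.4 and 31.2 CPM in vehicle, 13.3, 12.2 and 11.6 under TWEAK and 16.1, 17.6 and 16.5 under TWEAK with NIK SMI1 at 6 h, with no overlap between groups. TWEAK lowered it (log2 −1.29, standard error 0.070, adjusted p = 4.25e-14) and the inhibitor raised it (0.43, standard error 0.078, adjusted p = 0.000264). Foxa2 (GeneID 15376), a forkhead factor of endoderm-derived epithelia, had 13.05, 14.1 and 13.3 CPM in vehicle, 3.88, 3.06 and 3.80 under TWEAK and 6.45, 6.18 and 6.34 under TWEAK with NIK SMI1 at 24 h. It fell at 6 h (log2 −0.999, adjusted p = 8.55e-09), and the difference made by NIK SMI1 at 6 h did not pass the test (0.27, adjusted p = 0.13). Pparg (GeneID 19016), a nuclear receptor for lipid ligands, had 4.02, 4.11 and 4.44 CPM in vehicle, 1.41, 0.985 and 0.932 under TWEAK and 1.69, 1.39 and 1.62 under TWEAK with NIK SMI1 at 24 h. The inhibitor lay 0.56 above TWEAK on the log2 scale at 24 h and 0.07 above it at 6 h (adjusted p = 0.87). Lhx6, a LIM homeobox factor, fell at 6 h (log2 −1.16, adjusted p = 2.06e-05) and rose with NIK SMI1 (0.65, adjusted p = 0.044), a call that DESeq2 did not make (adjusted p = 0.0693) and that was lost without TWEAK sample 1 (0.0983) or 2 (0.205), without vehicle sample 2 (0.0501) and without any 1 inhibitor sample (0.0757 to 0.122). Irf8, an interferon regulatory factor, and Cbfa2t3, a corepressor, both fell at 6 h (log2 −1.12 for each, adjusted p = 0.0020 and 2.86e-08). Of 74 homeobox and nephron factors tested, 20 were lower and 13 higher at 6 h.

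Of the enzymes that keep retinoic acid low, Dhrs3 and Cyp26a1 were members. Dhrs3 (GeneID 20148), which reduces retinaldehyde to retinol, had 52.5, 49.5 and 57.6 CPM in vehicle, 16.2, 15.2 and 13.6 under TWEAK and 27.8, 22.1 and 23.8 under TWEAK with NIK SMI1 at 24 h. At 6 h it had 24.7, 23.1 and 26.9 CPM in vehicle, 12.7, 11.99 and 11.01 under TWEAK and 11.9, 15.1 and 12.4 under TWEAK with NIK SMI1, where the last 2 groups overlapped. TWEAK lowered it at 6 h (log2 −1.06, standard error 0.089, adjusted p = 2.80e-10), and the effect of NIK SMI1 then was 0.14 (adjusted p = 0.46). Cyp26a1 had 2.76, 3.50 and 3.03 CPM in vehicle, 0.617, 0.706 and 0.430 under TWEAK and 0.835, 1.10 and 1.04 under TWEAK with NIK SMI1 at 24 h, and fell at 6 h (log2 −0.99, adjusted p = 0.0064), a call lost without TWEAK sample 2 (adjusted p = 0.0509). In a list of 17 retinoid genes drawn up afterwards, 6 were lower and 4 higher at 6 h. Of the 11 metabolic enzymes in all, 9 were lower with TWEAK at 6 h and 5 were raised by NIK SMI1. Sgpp2, a sphingosine-1-phosphate phosphatase, and Pfkfb4, which sets the level of a glycolytic activator, fell with log2 fold changes of −0.94 and −0.99 at 6 h and were raised by 0.54 and 0.56 with the inhibitor (adjusted p = 6.74e-08 and 5.81e-08). Car2, a cytosolic carbonic anhydrase, fell (log2 −0.33, adjusted p = 0.000462) and gave no call with NIK SMI1 at 6 h (0.0046, adjusted p = 0.98).

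Of 9 matrix and adhesion genes, 7 were lower with TWEAK at 6 h and 3 were raised by NIK SMI1. Npnt (GeneID 114249), which encodes nephronectin, a basement membrane ligand of integrin alpha 8 beta 1 in kidney development, was the most counted member. It had 397, 378 and 390.0 CPM in vehicle, 245, 251 and 249 under TWEAK and 333, 319 and 316 under TWEAK with NIK SMI1 at 6 h. At 24 h it had 418, 405 and 405 CPM in vehicle, 161, 164 and 166 under TWEAK and 239, 236 and 237 under TWEAK with NIK SMI1. The groups were separate at both times. TWEAK lowered Npnt at 6 h (log2 −0.63, standard error 0.031, adjusted p = 6.79e-15), and its level was higher with NIK SMI1 than with TWEAK alone (0.37, standard error 0.032, adjusted p = 2.07e-09). Cldn2 (GeneID 12738), the claudin that forms cation and water pores in leaky tubular epithelium, had 5.47, 4.92 and 6.54 CPM in vehicle, 1.15, 0.578 and 0.669 under TWEAK and 2.26, 1.57 and 1.46 under TWEAK with NIK SMI1 at 24 h. TWEAK lowered it at 6 h (log2 −1.22, standard error 0.20, adjusted p = 2.13e-05), and the inhibitor gave 0.37 at 6 h (adjusted p = 0.35). The matrix proteins Efemp1 and Fbln5 had log2 values of −0.26 and −0.43 with TWEAK at 6 h, of which that of Efemp1 passed the test (adjusted p = 0.047 and 0.22). That of Efemp1 was lost without any 1 TWEAK sample (adjusted p = 0.0578 to 0.176), without vehicle sample 2 (0.174) or 3 (0.115), or without inhibitor sample 1 (0.0517). Of 95 claudins, cadherins and junction genes tested, 13 were lower and 14 higher at 6 h, so that list moved both ways, with Cldn2 and the protocadherin Pcdh19 (log2 −1.15, adjusted p = 1.20e-08) on the lower side.

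Among 11 genes of ion and solute transport, 8 were lower at 6 h and NIK SMI1 raised 1, Clca3b. Clca3b (GeneID 229927), a secreted regulator of calcium-activated chloride currents, had 287, 299.6 and 306 CPM in vehicle, 228, 222 and 216 under TWEAK and 249, 255 and 252 under TWEAK with NIK SMI1 at 6 h. At 24 h it had 216, 215 and 222 CPM in vehicle, 59.96, 58.1 and 61.4 under TWEAK and 90.3, 71.5 and 71.3 under TWEAK with NIK SMI1. The inhibitor samples lay between the other groups at both times, nearer to TWEAK. TWEAK lowered it at 6 h (log2 −0.41, standard error 0.051, adjusted p = 2.97e-07) and the inhibitor raised it (0.18, standard error 0.051, adjusted p = 0.022), a call that was lost without TWEAK sample 2 (adjusted p = 0.0623) or 3 (0.0805) or without inhibitor sample 1 (0.0503) or 2 (0.0879). Clca3b and Clca3a1 are close paralogs. The paper states that only uniquely aligned reads were counted, so reads that fit both genes equally would be missing from both counts. The urea transporter Slc14a2 and the bicarbonate transporter Slc4a8 fell at 6 h (log2 −0.64, adjusted p = 0.021 and −0.64, adjusted p = 0.012), while Slc12a8, of the cation-chloride cotransporter family, did not pass the test (−0.52, adjusted p = 0.12). The call of Slc14a2 was lost without vehicle sample 1 (adjusted p = 0.0569) or 3 (0.0535) or TWEAK sample 1 (0.10) or 3 (0.0785), and that of Slc4a8 without vehicle sample 3 (0.0721) or TWEAK sample 2 (0.0932). Of 246 solute carriers tested, 47 were lower and 45 higher at 6 h with a median log2 fold change of 0.013, and 4 of them were members, all below 5 CPM in every sample.

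Among 7 genes of coagulation and proteolysis, 4 were lower at 6 h and 3 were raised by NIK SMI1. Thbd (GeneID 21824), thrombomodulin, the cofactor with which thrombin activates protein C, had 73.4, 71.6 and 69.6 CPM in vehicle, 25.2, 30.6 and 26.5 under TWEAK and 46.9, 44.5 and 46.8 under TWEAK with NIK SMI1 at 6 h. At 24 h it had 61.6, 60.2 and 59.1 CPM in vehicle, 19.7, 18.9 and 17.6 under TWEAK and 29.6, 35.6 and 33.8 under TWEAK with NIK SMI1. No groups overlapped at either time. TWEAK lowered it at 6 h (log2 −1.36, standard error 0.062, adjusted p = 1.16e-15) and NIK SMI1 raised it (0.73, standard error 0.066, adjusted p = 5.17e-09). Proc, protein C itself, and F5, factor V, which activated protein C cleaves, were also members, at 2.02 ± 0.0178 and 5.11 ± 0.430 CPM in vehicle and 0.741 ± 0.0618 and 1.85 ± 0.517 CPM with TWEAK at 24 h (SD, n = 3 each). Neither passed the test at 6 h (log2 −0.41, adjusted p = 0.24 and −0.17, adjusted p = 0.53). Cpm, a membrane carboxypeptidase, fell at 6 h (log2 −0.77, adjusted p = 1.07e-13) and was raised by the inhibitor (0.23, adjusted p = 0.000938). Of 31 complement and coagulation genes tested, 4 were lower and 8 higher at 6 h.

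Of 11 receptors and sensors, 8 were lower at 6 h and 5 were raised by NIK SMI1. Trpa1, an irritant-sensing cation channel, had 188, 187 and 194 CPM in vehicle, 67.8, 70.8 and 71.01 under TWEAK and 131, 118 and 122 under TWEAK with NIK SMI1 at 24 h, with no overlap. Tlr3, the endosomal sensor of double-stranded RNA, had 133, 131 and 137 CPM in vehicle, 50.05, 51.5 and 51.5 under TWEAK and 78.6, 73.97 and 71.1 under TWEAK with NIK SMI1 at 24 h. Both fell at 6 h (log2 −0.68, adjusted p = 6.89e-14 and −0.66, adjusted p = 9.56e-13) and both were raised by the inhibitor (0.30, adjusted p = 2.09e-06 and 0.31, adjusted p = 7.56e-06), as was the orphan receptor Gpr50 (log2 −0.80, adjusted p = 1.15e-15 and 0.46, adjusted p = 9.87e-10). Grin1, an NMDA receptor subunit, overlaps the members Lrrc26 and Grin1os in the annotation, and the library kit does not keep strand, so reads of these genes could not be assigned with certainty. The same holds for Peg3 with Peg3os, Pla2g7 with 1700071M16Rik, and Gm36640 with both Pbp2 and Gm36582, and Ly6g with Ly6g2 are close paralogs. Of 17 genes of vesicle traffic, cytoskeleton and GTPase signalling, 14 were lower at 6 h and 5 were raised by NIK SMI1. Mctp1, a calcium-binding membrane protein, and Synpr, a synaptic vesicle protein, were among the 4 lowest ratios of all members. Mctp1 had 13.6, 12.9 and 12.9 CPM in vehicle, 1.45, 1.65 and 1.55 under TWEAK and 4.38, 4.18 and 3.90 under TWEAK with NIK SMI1 at 24 h, and its 6 h change was small (log2 −0.44, adjusted p = 0.000325). The kinase Dclk3 fell more steeply at 6 h (log2 −1.34, adjusted p = 6.89e-14) and was raised by the inhibitor (0.59, adjusted p = 1.62e-05). The other 39 members were placed in no role, of which 31 were lower at 6 h and 8 were raised by NIK SMI1.

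**Figure D3:**
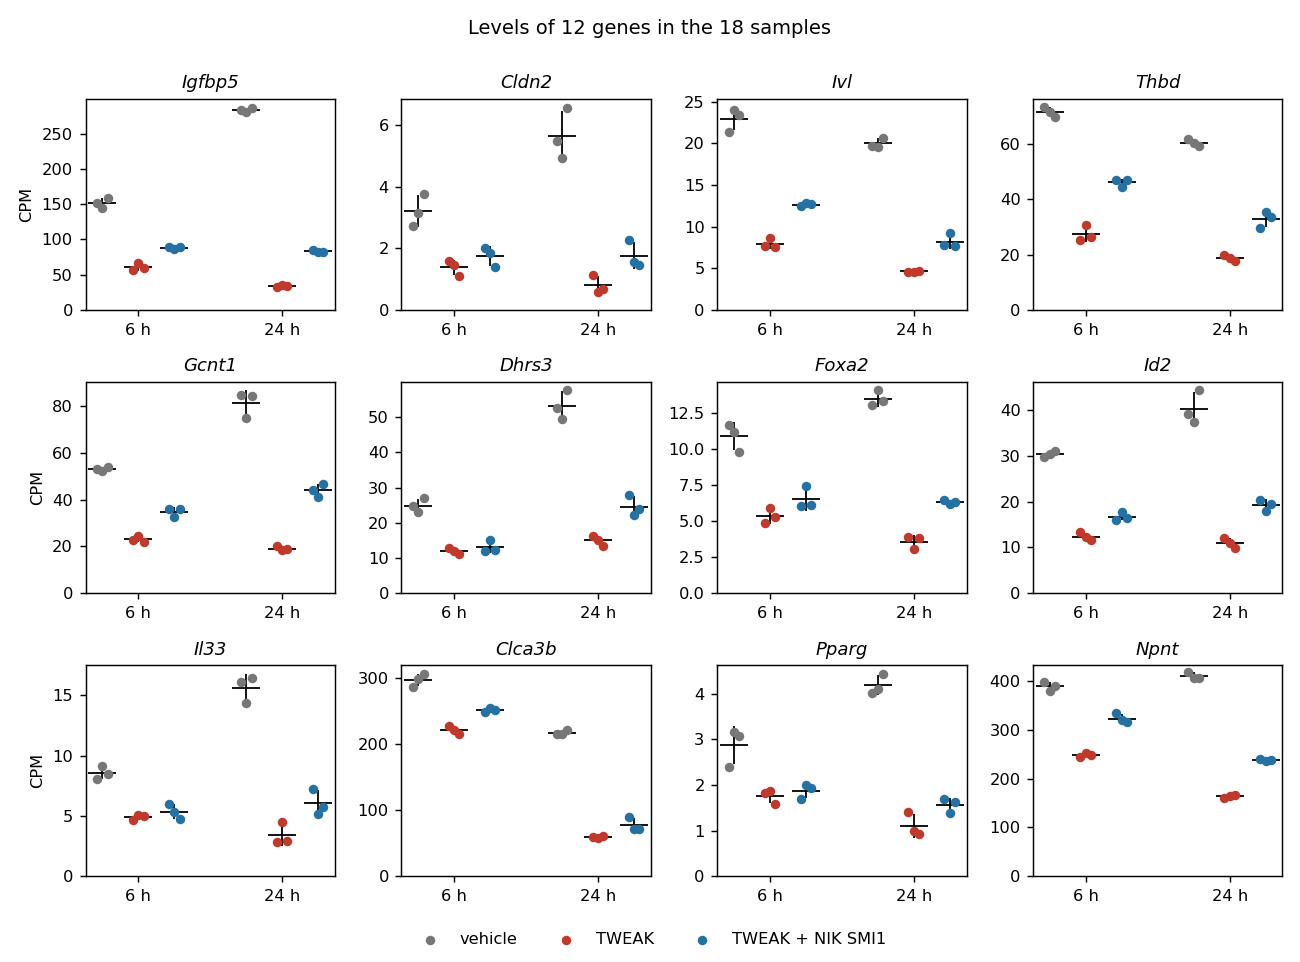
Level in CPM (y axis, from 0) of 12 members in all 18 samples at 6 h and 24 h. Points are samples, black bars the mean and SD of 3, and in every panel the blue points of TWEAK plus NIK SMI1 at 24 h lie above the mean of TWEAK and below all vehicle points, as for Igfbp5 (means 83.3, 33.5 and 283 CPM).

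With NIK SMI1 at 24 h the level of each member was set against the distance between TWEAK and vehicle. The share of the loss returned was taken as the log2 distance from TWEAK to the inhibitor, divided by that from TWEAK to vehicle, with 0.1 CPM added to each mean. Its median over the 140 genes was 45.7%, and 48.5%, 44.4% and 44.7% by the 3 inhibitor samples taken singly. The middle of the members lay between 39.0% and 55.3% (quartiles), 54 genes passed 50%, 11 stayed under 25% and 1 passed 75%. Because the TWEAK and vehicle samples had chosen the genes, the tests at 24 h are descriptions only. The level with NIK SMI1 was higher than with TWEAK in 113 genes, where 10.2% of all genes were higher, and by edgeR it was lower in 0, where 8.29% of all genes were, with 0 at an unadjusted p below 0.05 and 0 by DESeq2. Samples of the 2 groups did not overlap in 121 genes, as in 18.9% of all genes. Against vehicle, 131 genes were still lower with the inhibitor, where 9.83% of all genes were, and 137 had every inhibitor sample below every vehicle sample, as in 16.2% of all genes.

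The share returned differed among members by more than the spread between inhibitor samples for some. That spread was taken with the TWEAK and vehicle means held fixed, so it leaves out the spread of those samples. It was 71.3% ± 4.07 for ccdc198, a coiled-coil gene, 57.6% ± 1.40 for Gpr50 and 57.6% ± 4.36 for Gcnt1 (SD of the 3 inhibitor samples). It was 48.3% ± 8.04 for Thbd, 42.7% ± 0.910 for Igfbp5 and 40.7% ± 0.733 for Npnt. It was 20.3% ± 10.5 for Clca3b, 25.5% ± 7.64 for Pparg and 15.8% ± 14.9 for Pdzrn3, a ubiquitin ligase. The spread between inhibitor samples was small for Gpr50, Igfbp5 and Npnt, whereas several extremes were weakly expressed genes with wide spreads. The highest were Rgs7 (80.00% ± 25.6), ccdc198, Slc12a8 (65.5% ± 19.3), Fbln5 (63.6% ± 12.1) and Fam184a (62.98% ± 12.5). The lowest were Ifit3 (5.89% ± 24.8), Cxcl5 (8.72% ± 10.2), Proc (14.9% ± 15.4), Vtcn1 (15.2% ± 25.8) and Pdzrn3. By role, the median share was highest for the glycan-building enzymes (56.7%, from 44.2% to 60.3%) and lowest for ion and solute transport (34.6%, from 17.7% to 65.5%), with the other roles between 41.2% and 51.8%. The transport genes were not alike. By gene list, the 4 solute carriers among the members had a median share of 58.7%, though Slc14a2 had 17.7%, and the 3 ion channel genes had 25.5%.

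**Figure D4:**
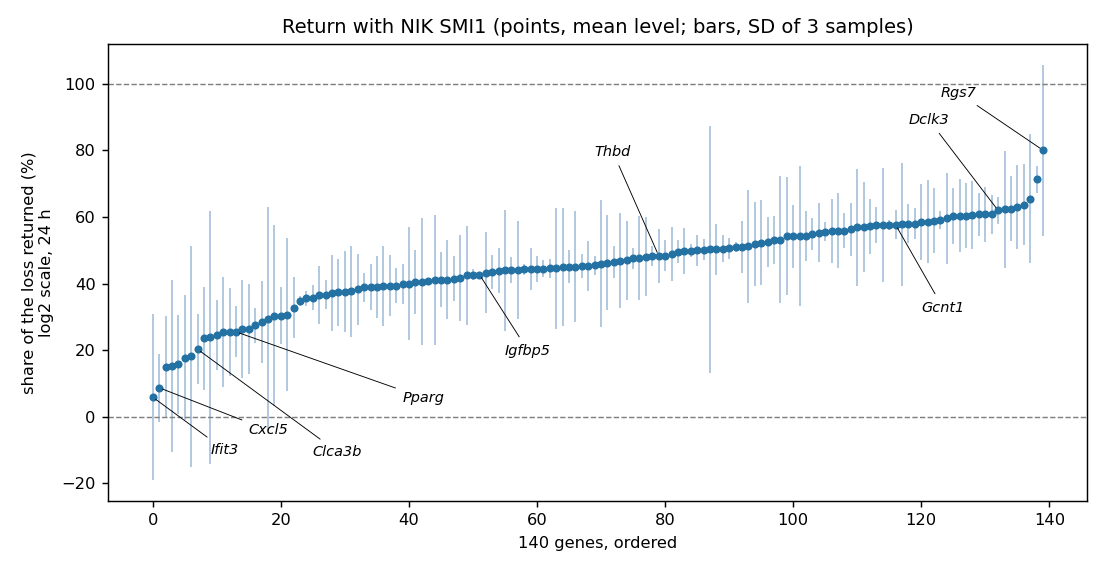
Share of the 24 h loss returned with NIK SMI1 (y axis, percent on the log2 scale) for each of the 140 genes in rising order (x axis). Points use group means and bars are the SD over the 3 inhibitor samples, and the points run from 5.89% for Ifit3 to 80.0% for Rgs7 without reaching 100%.

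The gap at 24 h opened in different ways. In vehicle, 74 members were higher at 24 h than at 6 h, where 15.5% of all genes were, and 14 were lower, where 14.4% were. With TWEAK, 93 were lower at 24 h than at 6 h, where 17.8% of all genes were. In 37 genes the vehicle level was higher and the TWEAK level lower at 24 h. In another 37 the vehicle level was higher and the TWEAK level was not lower. In 56 the TWEAK level was lower and the vehicle level was not higher, and in 10 neither level moved in these directions. Cyp26a1, Dhrs3, Fgf18 and St8sia1 were among those with a higher vehicle level and no lower TWEAK level. For Ppbp, Ivl, Clca3b, Gpr50 and Thbd both levels were lower at 24 h, as in 14 members, all of them counted in the 56. These samples entered the choice of genes, so nothing is read from these counts. The NIK SMI1 samples entered it only through the read filter. Between 6 h and 24 h with the inhibitor 44 members fell (31.4%), where 17.1% of all genes did, and 17 rose (12.1%), where 16.9% did. Il1f6, an interleukin-1 family cytokine, fell most (log2 −2.67, adjusted p = 9.45e-12), and Clca3b (log2 −1.77, adjusted p = 7.76e-19) and Ppbp (log2 −1.49, adjusted p = 1.37e-19) fell as well. Dclk3 (log2 1.11, adjusted p = 3.05e-12), Dhrs3 (log2 0.83, adjusted p = 7.16e-08) and St8sia1 (log2 0.59, adjusted p = 0.0033) were among those that rose. Each of these genes moved the same way in vehicle over that time, though not every member did. The vehicle log2 values were −1.73 for Il1f6, −0.52 for Clca3b and −0.56 for Ppbp. They were 1.004 for Dclk3, 1.02 for Dhrs3 and 0.81 for St8sia1. By contrast, Igfbp5, Psca, Synpr and Upk3b were higher at 24 h in vehicle (log2 0.83, 0.28, 0.70 and 0.63). With the inhibitor the same genes were lower at 24 h (log2 −0.16, −0.80, −1.32 and −1.06). All of these changes passed edgeR's test at adjusted p below 0.05. Whether the changes with the inhibitor differed from those in vehicle was not tested.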

How the data were processed

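RNA from murine RPTEC was sequenced after preparation with the Illumina TruSeq RNA kit v2, which does not keep strand. Alignment by the authors used GSNAP, run by HTSeqGenie, against NCBI mouse build 37. For each sample the authors deposited raw, not normalized counts of reads in gene exons. The same deposited files hold RPKM values, scaled by the authors for exon length and library size, which entered no test. Genes are named by Entrez GeneID, matched to RefSeq (GRCm38.p6) and then to GENCODE M21. No gene position was converted between builds, and promoter sequences are RefSeq's own with their GRCm38.p6 positions.

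Counts of genes with more than 10 reads in at least 4 samples were fitted over all 18 samples as 6 groups in edgeR 4.0.16 (TMM, quasi-likelihood F-test, under R 4.3.3), with Benjamini-Hochberg adjustment over all 15521 genes. DESeq2 1.42.0 was an alternative. Standard errors came from the F statistic. The labels give no replicate numbers, so sample numbers are names only. The members, gene lists, roles and motifs were chosen with earlier results of these data known. Members named were the 12 lowest ratios, the 8 highest vehicle levels, up to 4 per gene list, the lowest adjusted p at 6 h (8 for TWEAK, 5 for NIK SMI1), the 5 highest and 5 lowest shares returned and those nearest the limit, and further members named by role were picked after their values were seen.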

Additional observations from a re-analysis of the deposited data

How the results depend on the processing

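The count of members depended on the limits: 59 genes met the rule with 1 CPM added in place of 0.1, 80 with a ratio of at most 0.33 and 284 with at most 0.5. With a 2-fold minimum, 30 members were lower with TWEAK at 6 h, and with a 1.5-fold minimum 16 were raised by NIK SMI1 at 6 h. The median share returned was 32.2% on the linear scale and 42.5% with 1 CPM added. Leaving out single samples gave 101 to 113 members lower with TWEAK at 6 h, 39 to 52 raised by NIK SMI1 at 6 h, 100 to 111 at 24 h, 144 to 153 members, and a median share of 44.2% to 47.3%. By TWEAK sample 2 alone at 24 h, the TWEAK library lowest in islet reads, an alternative chosen after seeing the data, 156 genes met the rule, 129 of them shared with the 140, 86 members were higher with NIK SMI1 at 24 h, and the median share was 46.8%. DESeq2, its size factors, other read filters and a fit of 1 time point gave counts within 1.5 times of those reported. Of the 61 members named by rule, 12 of 49 calls with TWEAK at 6 h, 4 of 21 with NIK SMI1 at 6 h (Clca3b, Dsg3, Lhx6 and Pcdh19) and 14 of 47 with NIK SMI1 at 24 h (among them Pparg, Il33, Synpr, Upk3b and Fgf18) were lost under at least 1 alternative, and no direction was reversed. All vehicle libraries at 24 h carried islet reads, so none could be left out on that ground. No paired analysis was possible because the columns carry no replicate numbers. Depth limits the members below 3 CPM.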
